A study of Thermothelomyces thermophilus ATCC 42464 with 8 samples.

Results

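The d-xylose reductase deletion strain DF1102 was set against its starting strain JG207 across all genes of the deposited count table of Myceliophthora thermophila, a thermophilic filamentous fungus that degrades plant cell walls. JG207 overexpresses Aomae, a malate transporter gene, and Aopyc, a pyruvate carboxylase gene. DF1102 is JG207 with Mtxyl1 deleted, so both strains carry Aomae and Aopyc. The study describes one donor DNA for this locus with a PtrpC-neo resistance cassette and one with a stop codon and no marker, and which of them made DF1102 was not found in the sources used here. The comparison took 4 of the 8 libraries of the series, 2 of each strain. The other 4 come from DF1406 and DF1501, which also lack Mtxyl1 and overexpress Mtxyd1 and genes of the Weimberg pathway. They served only in the filter on low counts, the scaling factors and the estimate of the spread. All mycelia were pregrown for 24 h with 2% glucose in Vogel's minimal medium at 45 °C and 150 rpm, washed, and kept for 4 h with 1% d-xylose before RNA was taken. Whether a strain's 2 libraries stem from separate flasks is not given in the sources used here. The p-values therefore cover the spread between those libraries alone, and part or all of it may be technical. Genes of the carbohydrate-active enzyme (CAZyme), sugar transporter and ribosomal protein lists took part in the fit and the totals. They are named only where a rule on all genes or on the words of the descriptions led to them. Words led to MYCTH_75490, MYCTH_113450, MYCTH_72393 and MYCTH_2057386, among others, which stand in the CAZyme or sugar transporter list.

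In the oxo-reductive pathway of fungi, d-xylose reductase reduces d-xylose to xylitol, xylitol dehydrogenase oxidizes xylitol to d-xylulose, and xylulokinase phosphorylates d-xylulose for the pentose phosphate pathway. A strain without the reductase lacks the usual entry of d-xylose into central carbon metabolism. Fungi kept without a usable sugar can draw on storage carbohydrates and, through beta-oxidation in the peroxisome, on fatty acids, and they adjust ribosome production and DNA replication to growth. The gene roles given below are those of the descriptions in the deposited table, which are worded after the best match in Saccharomyces cerevisiae, so they are roles in that yeast and were not tested in M. thermophila.

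Mtxyl1 (MYCTH_43671), the deleted gene, had 33975 and 36890 counts in JG207 against 8467 and 7791 in DF1102. Both libraries of DF1102 lay below both of JG207, and the log2 fold change, given here and below ± its standard error, was -2.12 ± 0.14. Reads were thus still counted in this gene in DF1102, and where in the gene they lie was not analysed here. The genes beside Mtxyl1 were taken from the RefSeq gene order. RPKM, the unit of the levels below, is reads per kilobase of gene length scaled to the library total. The nearest gene on one side, MYCTH_2294281, a membrane protein of transport from the endoplasmic reticulum (ER) to the Golgi, had 137 and 128 RPKM in JG207 compared with 113 and 112 in DF1102, and its difference did not pass the test (-0.25 ± 0.11, edgeR adjusted p = 0.0852). On the other side, MYCTH_2073132, a regulatory subunit of a protein phosphatase, had 62.9 and 76.6 RPKM in JG207 versus 84.9 and 82.1 in DF1102 and likewise was not called (0.26 ± 0.11, adjusted p = 0.0619). The next gene on that side, MYCTH_2294289, of unknown function, fell from 11.4 and 11.5 RPKM to 4.22 and 3.94 (-1.49 ± 0.17). The other 3 of the 6 nearest genes were not called, with log2 fold changes from 0.01 to 0.59.

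The genes of the steps after the reductase were higher in DF1102. Xylitol dehydrogenase, xdh1 (MYCTH_2293953), had 515 and 510.1 RPKM in JG207 against 1168 and 1289 in DF1102 (1.26 ± 0.20), and xylulokinase, xkia (MYCTH_67060), had 80.9 and 91.9 RPKM in JG207 compared with 254 and 261 in DF1102 (1.57 ± 0.18). MYCTH_113236, the other gene tested by the study as a candidate d-xylose reductase and present in both strains, had 118 and 122 RPKM in JG207 versus 112 and 118 in DF1102, and its difference did not pass the test (-0.06 ± 0.10, edgeR adjusted p = 0.622). The levels of this gene overlapped between the strains.

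Of 9110 genes, 8335 had enough counts for the test, and a gene was called when its edgeR adjusted p was at most 0.05 and its fold at least 2. By this rule 849 genes (10.2%) were higher in DF1102 and 923 (11.1%) were lower, which is 21.3% of the tested genes. The higher genes reached further from 0. A fold of at least 8 was passed by 104 higher and 30 lower genes, and a fold of at least 16 by 55 higher and 12 lower genes. In all called genes the libraries of the strains did not overlap, and this was true of 80.8% of all tested genes. The median log2 fold change of all tested genes was -0.01. Library totals lay between 20854157 and 21408353 counts. Libraries of the same strain correlated at r = 0.9928 for JG207 and 0.9941 for DF1102 across genes, and libraries of these strains with each other at 0.920 to 0.923, with genes not being independent replicates. The plot of all genes shows these calls against the mean level.

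**Figure D1:**
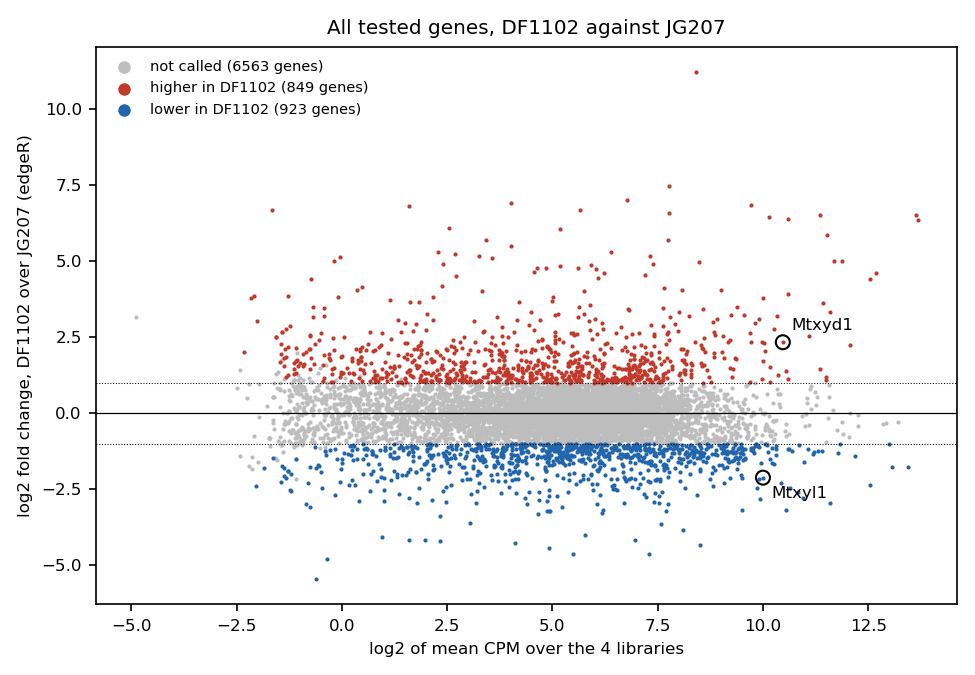
Log2 fold change of DF1102 over JG207 (edgeR) against the log2 of the mean CPM (counts scaled to equal library size) of the 4 libraries, 1 point per tested gene, with called genes in red (849 higher) and blue (923 lower) and dotted lines at a fold of 2. The called genes spread over the whole range of levels, and the points above 5 have few counterparts below -5.

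The called genes took up very different parts of the 2 transcriptomes. Genes called higher made up 4.55% and 4.36% of a library's counts in JG207 against 25.9% and 27.7% in DF1102. Genes called lower made up 31.3% and 29.5% in JG207 against 10.9% and 10.6% in DF1102. These are shares of the sequenced RNA, and in bulk mycelium a lower share per cell cannot be told apart from fewer cells with that transcript, nor a changed share from a changed amount of total RNA. A description was present for 36.2% of the genes called higher, 52.0% of those called lower and 50.7% of those not called.

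The 10 genes that gained the most CPM, counts scaled to the library total, went together from 0.486% and 0.37% of the counts in JG207 to 10.6% and 12% in DF1102. First among them was MYCTH_2308875, which has no description, at 319.5 and 159 RPKM in JG207 against 18094 and 21350 in DF1102. Next was MYCTH_2295902, whose description names a protein of unknown function of alcoholic fermentation in yeast, at 240.2 and 181 RPKM in JG207 compared with 18736 and 20648 in DF1102. Both thus rose from moderate levels to the highest of any gene named here. A further gene without description, MYCTH_81258, stood at 583 and 423 RPKM in JG207 versus 11022 and 13779 in DF1102. The putative aryl alcohol dehydrogenase MYCTH_116237, an oxidoreductase of aromatic alcohols and aldehydes, had 482 and 345 RPKM in JG207 against 8057 and 9574 in DF1102. MYCTH_54815, described as a 1-acyl dihydroxyacetone phosphate reductase of lipid particles, which makes a precursor of phosphatidic acid with NADPH, had 334 and 221 RPKM in JG207 compared with 8271 and 9594 in DF1102. In each of these genes the lowest library of DF1102 lay more than 10-fold above the highest of JG207. The 10 also held the xylanase gene MYCTH_89603, MYCTH_2308157 of the transporter list, MYCTH_2301625, MYCTH_2299886 without description and the multidrug transporter gene MYCTH_2113181.

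The 10 genes that lost the most CPM went from 8.91% and 7.14% of the counts to 2.74% and 2.29%. The flavohemoglobin gene MYCTH_112322, whose product in yeast removes nitric oxide, had 10860 and 7096 RPKM in JG207 versus 3154 and 2142 in DF1102 (-1.78 ± 0.33). MYCTH_2311855, glyceraldehyde-3-phosphate dehydrogenase of glycolysis, had 7209 and 6260 RPKM in JG207 against 1296 and 1342 in DF1102. These genes were among the most abundant in JG207. Another glycolytic gene, MYCTH_2316240, 3-phosphoglycerate kinase, had 2243 and 1942 RPKM in JG207 compared with 423 and 281 in DF1102. MYCTH_66338, inositol-3-phosphate synthase, which opens inositol synthesis, had 2184 and 2256 RPKM in JG207 versus 896 and 882 in DF1102. Of the others, MYCTH_2297659, described as translation factor eIF-5A, had a log2 fold change of -1.03 ± 0.24 and MYCTH_109638, the C-4 methyl sterol oxidase of ergosterol synthesis, of -1.02 ± 0.25. Both lay near the fold minimum and lost the call without 1 library. MYCTH_2297659 was at -0.98 without JG207 replicate 2 and -0.87 without DF1102 replicate 1, and MYCTH_109638 at -0.72 without JG207 replicate 1 and -0.90 without DF1102 replicate 2. In this set 4 genes have no description, of which MYCTH_87219 was the most abundant, at 16340 and 12047 RPKM in JG207 against 5381 and 2978 in DF1102.

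The 10 described genes with the highest folds, outside the CAZyme, transporter and ribosomal lists and with at least 10 CPM in DF1102, included enzymes of oxidation and reduction and of lipids. MYCTH_2309487, described as the multifunctional enzyme of peroxisomal beta-oxidation, which hydrates and dehydrogenates the acyl-CoA chain, had 3.48 and 1.07 RPKM in JG207 compared with 403 and 405 in DF1102. MYCTH_40719, dihydroxyacetone kinase, which removes dihydroxyacetone by phosphorylation, had 9.82 and 6.34 RPKM in JG207 versus 956 and 927 in DF1102. MYCTH_2094591 of the quinone oxidoreductase family had 1.18 and 1.44 RPKM in JG207 against 179 and 159 in DF1102. These 3 genes went from low to high levels, with log2 fold changes of 7.46 ± 0.77, 6.85 ± 0.36 and 7.0 ± 0.95. MYCTH_2301625, similar to oxidoreductases of lipid particles, had 50.5 and 24 RPKM in JG207 compared with 3223 and 3651 in DF1102. MYCTH_69746, described as UDP-glucose-4-epimerase, which interconverts UDP-galactose and UDP-glucose, had 0.316 and 0.475 RPKM in JG207 versus 13.6 and 14.2 in DF1102. MYCTH_108317, described as a mitochondrial beta-keto-acyl synthase with a possible role in fatty acid synthesis, had 0.28 and 0.252 RPKM in JG207 against 6.67 and 6.77 in DF1102. The last 2 stayed at low levels in DF1102 despite folds of over 16. The remaining 4 were MYCTH_54815 and MYCTH_2295902, given above, and MYCTH_2060442 and MYCTH_88807, whose descriptions give no function. Mtxyd1 (MYCTH_112471), the endogenous d-xylose dehydrogenase gene, gives a scale for these folds, at 244 and 216 RPKM in JG207 compared with 1137 and 1194 in DF1102.

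**Figure D2:**
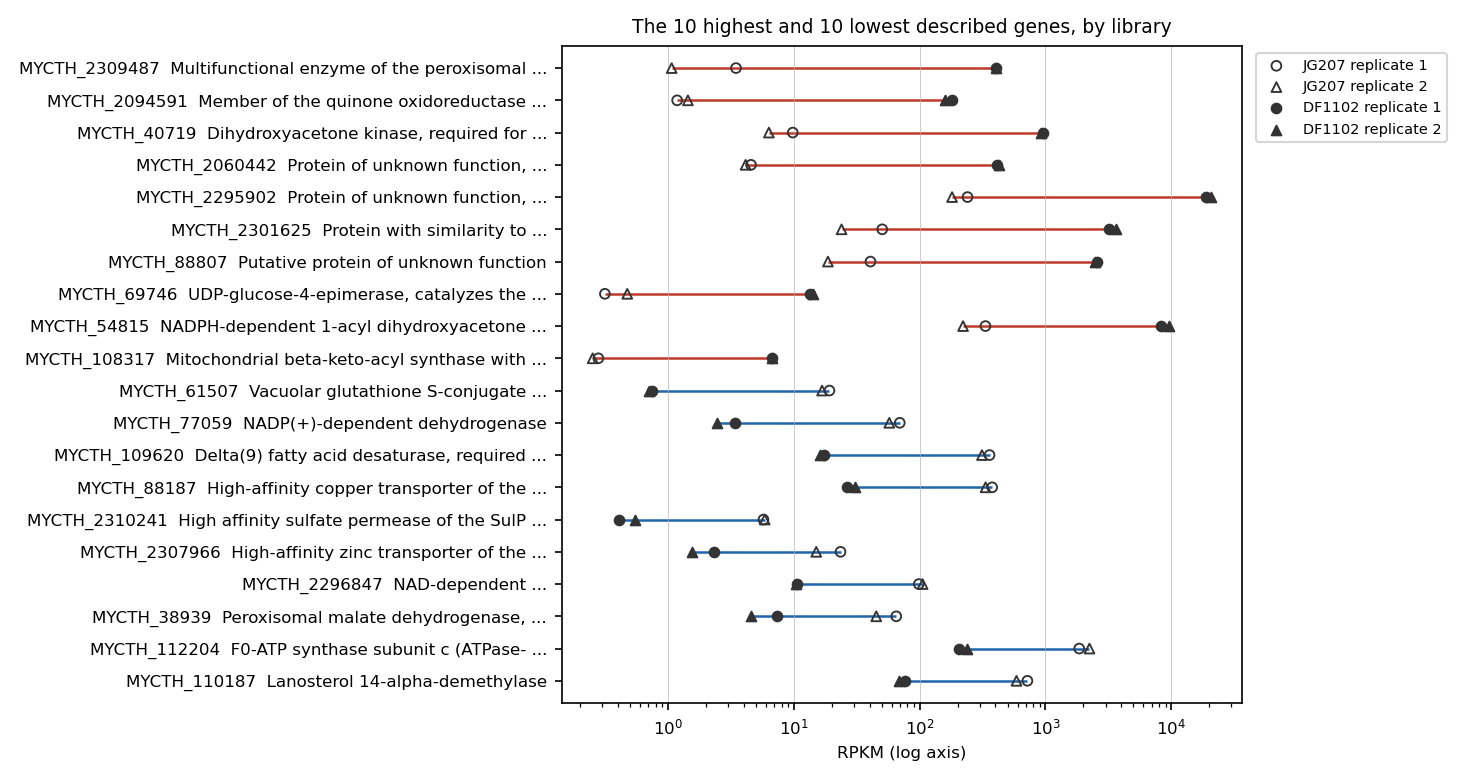
RPKM (log axis) of the 10 described genes with the highest and the 10 with the lowest folds, in each library of JG207 (open symbols) and DF1102 (filled symbols), with red lines for higher and blue for lower. The genes were chosen for their folds among called genes, in all of which the strains do not overlap, so their separation restates that choice.

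Genes drawn by words for alcohol, aldehyde or sugar oxidoreductases were frequent among the called genes. Of 95 tested, 24 were higher (25.3%) and 14 lower (14.7%), with a median log2 fold change of 0.21 against -0.01 for all genes. Besides MYCTH_116237, 2 more genes described as putative aryl alcohol dehydrogenases rose, MYCTH_2302975 with 242 and 166 RPKM in JG207 versus 969 and 1085 in DF1102 and MYCTH_2302859 with 330 and 292 RPKM in JG207 against 1024 and 1032 in DF1102. MYCTH_2311703, an NADPH-dependent aldehyde reductase, had 162 and 128 RPKM in JG207 compared with 2071 and 2312 in DF1102. MYCTH_84302, an NADPH-dependent medium chain alcohol dehydrogenase, had 128 and 132 RPKM in JG207 versus 666 and 839 in DF1102. All of these lay at over 3 times their level in JG207 in both libraries. MYCTH_2302975, MYCTH_2302859 and MYCTH_84302 were chosen after their values were seen. Fewer of the list fell. A second flavohemoglobin gene, MYCTH_2294361, had 49.8 and 53.5 RPKM in JG207 against 11.4 and 9.43 in DF1102, and with MYCTH_112322 and Mtxyl1 it made up the 3 lowest of the list among genes of at least 10 CPM. Counts of this list include Mtxyl1 itself. The words also took in the flavohemoglobin genes, the quinone oxidoreductase gene MYCTH_2094591 and MYCTH_2301625 of lipid particles. The counts thus cover more than enzymes of alcohols, aldehydes and sugars.

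Genes of the peroxisome and of beta-oxidation were called higher far more often than lower. Of 64 tested, 22 were higher (34.4%) and 2 lower (3.12%), with a median log2 fold change of 0.67, and 51 lay above 0. The description of the multifunctional enzyme belonged to 7 tested genes, of which 5 were higher. Besides MYCTH_2309487, these included MYCTH_2308261 with 3.31 and 2.85 RPKM in JG207 compared with 38.7 and 48.2 in DF1102 and MYCTH_2299448, which overlaps another gene, with 11.7 and 9.23 RPKM in JG207 versus 88.3 and 85.9 in DF1102. The other two genes with this description, MYCTH_2302811 and MYCTH_2311000, were not called, with log2 fold changes of -0.39 and 0.12. The steps before and after it were chosen after their values were seen. MYCTH_2297849, fatty acyl-CoA oxidase, which takes the first step, had 41.2 and 41.1 RPKM in JG207 against 96 and 80.9 in DF1102. MYCTH_108115, 3-ketoacyl-CoA thiolase, which takes the last, had 70.1 and 57.7 RPKM in JG207 compared with 242 and 184 in DF1102. Both enzymes lay near a fold of 2 to 3 (1.10 ± 0.23 and 1.72 ± 0.35), and the oxidase lost the call without DF1102 replicate 1, at 0.99. Both genes of the peroxisomal importer of fatty acids, an ABC transporter of paired subunits, rose from 9.14 and 10.3 to 36.4 and 28.9 RPKM (MYCTH_2294268) and from 5.99 and 6.29 to 29.3 and 28.3 (MYCTH_2312214). Of 11 genes described as 2,4-dienoyl-CoA reductase, an auxiliary enzyme for unsaturated chains, 3 were higher and 1, MYCTH_2064803, was lower. Of the higher ones, 2 rose from 39.3 and 34.9 to 236 and 309 (MYCTH_2294358) and from 40.6 and 42.2 to 229.9 and 252 (MYCTH_2089545). MYCTH_2312115, a carnitine acetyltransferase that moves acetyl groups between compartments, had 24.8 and 26.2 RPKM in JG207 versus 82.6 and 75.4 in DF1102. Of the 2 genes called lower, MYCTH_38939, peroxisomal malate dehydrogenase, fell the further, from 65.2 and 45.2 RPKM to 7.36 and 4.57 (-3.23 ± 0.41).

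Enzymes that use acetyl-CoA and gluconeogenic precursors did not move in one direction. Of 12 tested genes of acetate, glyoxylate and gluconeogenesis, 3 were higher and 3 lower. MYCTH_110871, isocitrate lyase of the glyoxylate cycle, had 16.7 and 16 RPKM in JG207 against 48.5 and 42.5 in DF1102 (1.47 ± 0.26). Of 4 genes described as acetyl-CoA synthetase, 2 rose by 1.81 (MYCTH_2300248) and 1.18 (MYCTH_2097501) on the log2 scale. Among the lower ones, MYCTH_2295692, pyruvate carboxylase, had 104 and 106 RPKM in JG207 compared with 29.7 and 25.5 in DF1102 (-1.94 ± 0.16), in strains that both also carry Aopyc. MYCTH_2307908, mitochondrial malic enzyme, had 7.82 and 7.33 RPKM in JG207 versus 1.39 and 1.2 in DF1102. The third, MYCTH_109978, is an isopropylmalate synthase of leucine synthesis that the words of the list took in. MYCTH_2305433, the mitochondrial carrier that exchanges succinate for fumarate, rose from 8.22 and 5.66 to 33.6 and 27.6 RPKM.

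Storage and small sugar alcohol genes held some of the clear differences. MYCTH_75490, a putative neutral trehalase, which splits trehalose, rose from 39 and 47.9 to 320.2 and 372 RPKM (2.99 ± 0.17). MYCTH_53508, glycerol kinase, had 6.26 and 7.89 RPKM in JG207 against 41.3 and 47.7 in DF1102. MYCTH_2296323, glycerol-3-phosphatase, had 117 and 113 RPKM in JG207 compared with 261 and 312 in DF1102. In the opposite direction, MYCTH_2309843, glycogen phosphorylase, which frees glucose-1-phosphate from glycogen, had 64.9 and 50.2 RPKM in JG207 versus 12.1 and 8.45 in DF1102, and MYCTH_2296536, phosphoglucomutase, had 227 and 249 RPKM in JG207 against 93.4 and 99.3 in DF1102. The list of trehalose, glycogen and glycerol genes had 3 higher and 2 lower of 15, and the list of dihydroxyacetone and glycerol genes 4 higher and 1 lower of 17. Both had medians below 0, at -0.39 and -0.12, so the rise of single genes was not shared by the lists. Genes of galactose and nucleotide sugars had 8 higher and 6 lower of 31. The epimerase description belonged to 6 tested genes, of which 4 were higher and 1 lower. The lower gene, MYCTH_2310252, had 76 and 87.7 RPKM in JG207 compared with 29.8 and 32.6 in DF1102, and it overlaps another gene on the genome. MYCTH_2057386, described as galactose permease, had 1.73 and 1.8 RPKM in JG207 versus 10.5 and 12 in DF1102.

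Multidrug and ABC transporters had 11 higher (23.9%) and 3 lower (6.52%) of 46, next to 10.2% and 11.1% of all genes. MYCTH_2113181, an ABC transporter of the plasma membrane, had 125 and 112 RPKM in JG207 against 1172 and 1210 in DF1102, and MYCTH_2030361, of the major facilitator superfamily, had 2.79 and 3.39 RPKM in JG207 compared with 40.3 and 40.6 in DF1102. The lowest of the list, MYCTH_61507, described as the vacuolar pump for glutathione conjugates, fell from 19.2 and 16.8 to 0.744 and 0.712 RPKM (-4.63 ± 0.65). Proteases had 11 higher (13.4%) and 2 lower (2.44%) of 82, the higher share lying near that of all genes. Without any single library of JG207 replicate 1, DF1102 replicate 1 or DF1102 replicate 2 the lower count was 1. Autophagy and vacuole genes had 7 higher (4.24%) and 12 lower (7.27%) of 165. MYCTH_2303011, vacuolar proteinase B, which takes part in bulk breakdown of protein, had 133 and 143 RPKM in JG207 versus 669 and 747 in DF1102. MYCTH_2310317, described as an inhibitor of carboxypeptidase Y, had 1.65 and 2.45 RPKM in JG207 against 15.8 and 18.1 in DF1102. Endochitinase MYCTH_113450, which separates cells after division in yeast, had 48.2 and 50 RPKM in JG207 compared with 259 and 264 in DF1102.

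Among the 10 described genes with the lowest folds, MYCTH_61507, given above, was the lowest. MYCTH_109620, the delta-9 desaturase that makes monounsaturated fatty acids, had 359 and 313 RPKM in JG207 versus 17.3 and 16.1 in DF1102 (-4.34 ± 0.20). MYCTH_77059, an NADP-dependent dehydrogenase of hydroxy acids, had 69.5 and 57.4 RPKM in JG207 against 3.39 and 2.48 in DF1102 (-4.44 ± 0.21). Each was more than 10-fold lower in the deletion strain in every library. MYCTH_88187, the high-affinity copper transporter, had 377 and 334 RPKM in JG207 compared with 26.7 and 30.5 in DF1102. MYCTH_2310241, the high-affinity sulfate permease, had 5.74 and 5.88 RPKM in JG207 versus 0.412 and 0.543 in DF1102. MYCTH_2307966, the high-affinity zinc transporter, had 23.5 and 15.1 RPKM in JG207 against 2.34 and 1.56 in DF1102. The list of metal and phosphate transporters as a whole had 0 higher and 7 lower of 31 by edgeR, with a median of -0.52, and 7 of the members above 0 passed the adjusted p at a smaller fold. Without JG207 replicate 1, JG207 replicate 2 or DF1102 replicate 1, 1 member was called higher. MYCTH_2314032, a ferric and cupric reductase that prepares metals for uptake, had 124 and 77.5 RPKM in JG207 compared with 25 and 20.2 in DF1102. MYCTH_2296847, a methylenetetrahydrofolate dehydrogenase of one-carbon metabolism, had 98.5 and 106 RPKM in JG207 versus 10.7 and 10.3 in DF1102.

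Genes of ergosterol synthesis, the membrane sterol of fungi, were lower at many steps. Of 55 tested sterol genes, 12 were lower (21.8%) and 7 higher (12.7%), with a median of -0.36. Early in the pathway, MYCTH_111934, HMG-CoA synthase, had 169 and 182 RPKM in JG207 against 19.8 and 24.8 in DF1102 (-2.98 ± 0.20). MYCTH_2299088, squalene epoxidase, had 184 and 107 RPKM in JG207 compared with 48.6 and 42.8 in DF1102 (-1.69 ± 0.24). MYCTH_110187, lanosterol 14-alpha-demethylase, the target of azole fungicides, had 718 and 588 RPKM in JG207 versus 77 and 68.8 in DF1102 (-3.18 ± 0.27). At these steps the levels in DF1102 were under 50% of those in JG207 in every library. MYCTH_110670, the C-24 methyltransferase, had a log2 fold change of -2.04 ± 0.23, MYCTH_111214, the C-24(28) reductase of the last step, of -1.41 ± 0.14, and MYCTH_112159, squalene synthase, of -1.14 ± 0.17. Of the steps near the fold minimum, MYCTH_64893, the C-8 isomerase, was at -1.06 ± 0.17 and MYCTH_2314646, the C-3 dehydrogenase, at -1.01 ± 0.11. Both lost the call without JG207 replicate 1, at -0.89 and -0.93, and without DF1102 replicate 2, at -0.94 for each, and MYCTH_2314646 also under 6 other settings, with log2 fold changes of -0.98 to -0.997. Squalene synthase, squalene epoxidase, the methyltransferase, the isomerase, the C-3 dehydrogenase and the C-24(28) reductase were chosen after their values were seen. The 7 higher genes included MYCTH_2302782, cytochrome b5, an electron donor of several of these enzymes, at 33.5 and 35.5 RPKM in JG207 against 180.4 and 190.3 in DF1102, and second genes for the demethylase and for the C-22 desaturase, which are described with the pairs below.

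Fatty acid and sphingolipid genes were called in both directions, with 8 higher (14.3%) and 10 lower (17.9%) of 56, next to 10.2% and 11.1% of all genes. MYCTH_67390, a medium-chain elongase, fell from 21.8 and 31.2 to 3.96 and 4.0 RPKM (-2.73 ± 0.20). MYCTH_2312755, dihydrosphingosine phosphate lyase, which breaks down sphingoid bases, rose from 67.5 and 65.5 to 222 and 212 (1.70 ± 0.20). Phospholipid genes had 10 higher (8.13%) and 4 lower (3.25%) of 123, both shares under those of all genes. MYCTH_2308988, a triacylglycerol lipase and steryl ester hydrolase, which frees fatty acids from storage lipid, had 2.77 and 3.0 RPKM in JG207 compared with 14.1 and 10.2 in DF1102, while inositol-3-phosphate synthase, given above, fell.

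In glycolysis, 9 of 19 genes were lower (47.4%) and 3 higher (15.8%), with a median log2 fold change of -0.74, and the whole list went from 2.10% and 1.89% of the counts in JG207 to 0.592% and 0.569% in DF1102. The steps from glyceraldehyde-3-phosphate to phosphoenolpyruvate held the 3 largest decreases. Glyceraldehyde-3-phosphate dehydrogenase, 3-phosphoglycerate kinase and enolase (MYCTH_2295989) fell by 2.36, 2.59 and 2.46 on the log2 scale. Enolase had 1331 and 1279 RPKM in JG207 versus 238 and 238 in DF1102. Phosphoglycerate mutase (MYCTH_2315941), beta phosphofructokinase (MYCTH_2297503) and pyruvate kinase (MYCTH_2067689) fell by 1.22, 1.13 and 1.09, and glucokinase (MYCTH_2297364) by 1.27. The mutase gene has no description, and its name is that of the study's list. A second gene described as pyruvate kinase, MYCTH_2066697, had 78 and 87.1 RPKM in JG207 against 51 and 48.1 in DF1102 and stayed under the fold minimum (-0.74 ± 0.11). MYCTH_2067689 lost the call without DF1102 replicate 2, at -0.89, and glucokinase without JG207 replicate 1, at -0.95. Phosphoglucose isomerase (MYCTH_2298386) and 2 hexokinase genes were not called, with log2 fold changes of -0.38, 0.14 and 0.63. Of the 3 higher genes, MYCTH_2306943, fructose-1,6-bisphosphatase, the gluconeogenic counterpart of phosphofructokinase, had 44.3 and 27.9 RPKM in JG207 compared with 81 and 70.2 in DF1102 (1.05 ± 0.34, adjusted p = 0.0253). It lost the call without JG207 replicate 2, DF1102 replicate 1 or DF1102 replicate 2, at 0.71, 0.96 and 1.13, with adjusted p of 0.161, 0.114 and 0.0711. Without JG207 replicate 2, 1 glycolysis gene was higher rather than 3. The other 2 higher genes share their descriptions with lower ones.

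In the pentose phosphate pathway, which the products of d-xylose enter, 2 of 7 genes were lower and 0 higher by edgeR, with 1 more higher without the fold minimum. MYCTH_2297820, transaldolase, had 1541 and 1518 RPKM in JG207 versus 654 and 692 in DF1102 (-1.19 ± 0.16). MYCTH_2299676, ribose-5-phosphate isomerase, had 82.6 and 74.8 RPKM in JG207 against 33.6 and 29.3 in DF1102 (-1.33 ± 0.12). Both belong to the branch without oxidation. MYCTH_2300643, transketolase, was not called, at -0.34 ± 0.17, and MYCTH_2074905, glucose-6-phosphate dehydrogenase, the entry of the oxidative branch, had 139 and 162 RPKM in JG207 compared with 209 and 221 in DF1102 and lay above 0 but under the fold minimum (0.51 ± 0.13). The tricarboxylic acid cycle had 5 of 20 lower and 0 higher, with 17 below 0 and a median of -0.56. Without the fold minimum, 12 were lower and 1 higher. MYCTH_2302623, a putative mitochondrial aconitase isozyme, had 67.5 and 74.1 RPKM in JG207 versus 15.7 and 15.6 in DF1102 (-2.18 ± 0.18), and MYCTH_2309261, the other aconitase gene, 265 and 278 RPKM in JG207 against 219.9 and 231 in DF1102 (-0.27 ± 0.15). MYCTH_2080603, a subunit of pyruvate dehydrogenase, fell by 1.60. MYCTH_2305575, mitochondrial malate dehydrogenase, had 1929 and 1900 RPKM in JG207 compared with 839.8 and 1017 in DF1102, near the fold minimum (-1.05 ± 0.18). It was at -0.96 without JG207 replicate 1 and -0.90 without DF1102 replicate 1. Without DF1102 replicate 1 the lower count of the cycle was 2.

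Amino acid synthesis had the largest share of lower genes of the 46 lists. Of 39 tested, 23 were lower (59.0%) and 2 higher (5.13%), with a median log2 fold change of -1.06 and 34 members below 0. The branched-chain pathway was lower from its first step to its last, in genes of which several were chosen after their values were seen. MYCTH_2299597, acetolactate synthase, had 93.1 and 126 RPKM in JG207 versus 23.3 and 24.5 in DF1102 (-2.19 ± 0.20), and its regulatory subunit MYCTH_2085059 had 326 and 408 RPKM in JG207 against 110.5 and 129.7 in DF1102. MYCTH_2133056, the reductoisomerase, had 319 and 366 RPKM in JG207 compared with 68.9 and 82.9 in DF1102. MYCTH_2301934, the dehydratase, had 108 and 126 RPKM in JG207 versus 36.1 and 42.3 in DF1102. In each of these steps the levels in DF1102 were under 50% of those in JG207. In the leucine branch, isopropylmalate synthase (MYCTH_109978), isomerase (MYCTH_2299349) and dehydrogenase (MYCTH_2304102) were at -1.04 ± 0.13, -1.71 ± 0.20 and -2.34 ± 0.17, and the aminotransferase (MYCTH_2306813), which overlaps another gene, at -1.35 ± 0.15. The synthase was at -0.96 without JG207 replicate 2 or DF1102 replicate 1 and was then not called. The 2 higher genes of the list were MYCTH_2300236, gamma-glutamyl phosphate reductase of proline synthesis (1.36 ± 0.16), and MYCTH_2304566, NAD-dependent glutamate dehydrogenase.

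The genes of ammonium and glutamate given here came from several lists and form no list of their own. MYCTH_2090554, NADP-dependent glutamate dehydrogenase, which makes glutamate from ammonium, had 121 and 113 RPKM in JG207 against 19.4 and 15.7 in DF1102 (-2.75 ± 0.19). MYCTH_2312662, glutamate synthase, chosen after its values were seen, had 54.8 and 46.8 RPKM in JG207 compared with 15 and 11.9 in DF1102 (-1.93 ± 0.21), and MYCTH_63965, glutamine synthetase, which overlaps another gene, had 193 and 159.7 RPKM in JG207 versus 55.5 and 50.5 in DF1102. MYCTH_2304566, the NAD-dependent dehydrogenase, which degrades glutamate to ammonium, had 51.2 and 55 RPKM in JG207 against 208 and 210.3 in DF1102 (1.97 ± 0.17). The first 3 of these genes were thus lower and the NAD-dependent dehydrogenase was higher. MYCTH_2306275, urea amidolyase, and MYCTH_2310234, guanine deaminase, which release nitrogen from urea and guanine, rose from 5.91 and 5.68 to 23.7 and 23 RPKM and from 8.57 and 8.94 to 21.4 and 28.5. The uptake genes held both directions, with 8 higher (12.9%) and 5 lower (8.06%) of 62, near the 10.2% and 11.1% of all genes. MYCTH_2316511, general amino acid permease, had 44.4 and 53.7 RPKM in JG207 compared with 219 and 203 in DF1102, and MYCTH_2312467, arginine permease, 81.3 and 74.2 RPKM in JG207 versus 14.3 and 12.7 in DF1102.

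Sulfur, folate and nucleotide lists held many lower genes. Sulfur and methionine genes had 18 lower (30.0%) and 4 higher of 60. MYCTH_2305043, methionine synthase, had 281 and 358 RPKM in JG207 against 63 and 65.3 in DF1102 (-2.31 ± 0.18), and MYCTH_2297319, a methyltransferase of the siroheme made for sulfite reduction, had 51.4 and 38.6 RPKM in JG207 compared with 9.13 and 8.89 in DF1102. MYCTH_2124996, gamma-glutamylcysteine synthetase, which opens glutathione synthesis, had 34.1 and 37.7 RPKM in JG207 versus 111 and 120.3 in DF1102 and was among the few higher ones. Genes of folate, vitamins and cofactors had 17 lower (22.1%) and 8 higher (10.4%) of 77, next to 11.1% and 10.2% of all genes. Nucleotide synthesis genes had 15 lower (29.4%) and 1 higher of 51, a count that includes MYCTH_2304598, uracil phosphoribosyltransferase of the salvage route, at 1.03 ± 0.13, as its higher member, and this was not called without JG207 replicate 1 or DF1102 replicate 2, at 0.98 and 0.93. MYCTH_2304164, adenylosuccinate lyase of purine synthesis, had 156 and 133 RPKM in JG207 against 29.8 and 30.8 in DF1102 (-2.26 ± 0.14). MYCTH_2141429, of another purine step, had 64.3 and 72.4 RPKM in JG207 compared with 15.1 and 15.3 in DF1102. MYCTH_2299023, the carbamoylphosphate synthetase and aspartate transcarbamylase of pyrimidine synthesis, had 9.91 and 12.8 RPKM in JG207 versus 2.54 and 2.01 in DF1102. Purine and pyrimidine routes thus both held lower genes. The words of this list also took in MYCTH_105063 and MYCTH_2296399, of tryptophan and histidine synthesis.

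DNA replication genes were often called lower, at 24 of 62 (38.7%) with 1 higher and a median of -0.84. MYCTH_68292, the small subunit of ribonucleotide reductase, which makes deoxynucleotides, had 70.1 and 92.6 RPKM in JG207 against 12.7 and 16.3 in DF1102 (-2.48 ± 0.22). MYCTH_2311451, its large subunit, had 44.7 and 55.4 RPKM in JG207 compared with 18.5 and 21.1 in DF1102. MYCTH_2308073, thymidylate synthase, had 37.4 and 32 RPKM in JG207 versus 12.5 and 11.4 in DF1102. These enzymes supply the precursors of DNA. MYCTH_2061829, the catalytic subunit of DNA polymerase alpha, which starts the new strands, had 4.3 and 5.4 RPKM in JG207 against 1.09 and 0.976 in DF1102. MYCTH_2296073, the sliding clamp PCNA, had 67.5 and 92.7 RPKM in JG207 compared with 18.7 and 23.7 in DF1102. MYCTH_2312770, a subunit of the clamp loader, had 17.1 and 22.8 RPKM in JG207 versus 4.5 and 5.85 in DF1102. The polymerase and the clamp thus had lower levels as well. The large subunit, the synthase, PCNA and the loader were chosen after their values were seen. The words of the list also matched homeobox repressors that bind with Mcm1p, MYCTH_2294145, which was lower (-2.18 ± 0.25), and MYCTH_122893, the 1 higher gene (1.2 ± 0.19). DNA repair genes had 10 lower (12.5%) and 4 higher (5%) of 80, with a median of -0.10. The lower share lay near the 11.1% of all genes, of which 10.2% were higher. Mitosis and microtubule genes had 11 lower (8.8%) and 2 higher (1.6%) of 125, both shares under those of all genes, with a median of -0.08. The lower count was 7 without JG207 replicate 2. Alpha-tubulin (MYCTH_2312947) and beta-tubulin (MYCTH_2306723) had log2 fold changes of -1.22 ± 0.20 and -1.19 ± 0.20.

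In the mitochondrion, genes of the respiratory chain and ATP synthase had 12 lower (27.3%) and 1 higher of 44, with a median of -0.76 and 38 below 0. Together they went from 3.37% and 3.19% of the counts in JG207 to 1.66% and 1.78% in DF1102. MYCTH_2312390, subunit Va of cytochrome c oxidase, had 1959 and 1453 RPKM in JG207 against 564 and 544 in DF1102 (-1.64 ± 0.20). MYCTH_2316294, the Rieske protein of the cytochrome bc1 complex, had 926 and 904 RPKM in JG207 compared with 321 and 341 in DF1102 (-1.47 ± 0.13), and was chosen after its values were seen. MYCTH_2316564, described as cytochrome c isoform 2, the carrier between these complexes, overlaps another gene and had 2428 and 2378 RPKM in JG207 versus 705 and 805 in DF1102. These abundant transcripts fell by similar amounts. Carriers of the inner membrane did not share the direction, with 5 higher (16.1%) and 4 lower (12.9%) of 31. Of all genes, 10.2% were higher and 11.1% lower. The higher count of the carriers changed without JG207 replicate 1. MYCTH_2311411, the GTP/GDP carrier, had 63.4 and 65.7 RPKM in JG207 against 20.4 and 19.4 in DF1102, and MYCTH_2298926, a carrier for coenzyme A, had 27.9 and 25.2 RPKM in JG207 compared with 111 and 107 in DF1102. Mitochondrial import genes had 2 lower (12.5%) and 0 higher of 16 by edgeR, with 10 lower and 1 higher without the fold minimum. Genes of iron, heme and iron-sulfur proteins had 13 lower (17.1%) and 5 higher (6.58%) of 76, and the higher count changed without DF1102 replicate 1. MYCTH_112612, coproporphyrinogen oxidase of heme synthesis, had 1303 and 930.3 RPKM in JG207 versus 304 and 202 in DF1102 (-2.16 ± 0.28). Of the higher genes, MYCTH_2297943, D-lactate dehydrogenase, had 25.9 and 25.5 RPKM in JG207 against 169.8 and 162 in DF1102, and MYCTH_2306298, alcohol dehydrogenase type IV, had 8.4 and 9.47 RPKM in JG207 compared with 64.5 and 76 in DF1102. The description of MYCTH_2297943 names heme only for its transcription. That of MYCTH_2306298 calls the enzyme zinc-dependent and names iron only for a sequence similarity.

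Genes against oxidative stress had 7 lower (12.5%) and 3 higher (5.36%) of 56, next to 11.1% and 10.2% of all genes. The lower share lay near that of all genes, and the higher count changed without JG207 replicate 1. A pair of abundant peroxiredoxin genes, whose products reduce peroxides, fell. MYCTH_2297550, described as thiol-specific, had 2503 and 2663 RPKM in JG207 versus 358 and 367 in DF1102 (-2.84 ± 0.20), and MYCTH_2095451, mitochondrial, had 1645 and 1790 RPKM in JG207 against 323 and 372 in DF1102 (-2.31 ± 0.17). MYCTH_2310462, a cytoplasmic thioredoxin, which stands in the vesicle transport list by its description, had 1461 and 1457 RPKM in JG207 compared with 510.4 and 545 in DF1102.

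In the machinery of protein synthesis most shifts were small. Ribosome biogenesis genes had 21 lower (13.6%) and 1 higher (0.649%) of 154, next to 11.1% and 10.2% of all genes. Their median was -0.43, and 112 lay below 0. Most of these shifts were under the fold minimum, since 82 were lower without the fold minimum. MYCTH_2311869, of the large subunit precursor, had 14.4 and 19.8 RPKM in JG207 versus 5.23 and 5.75 in DF1102. The 1 higher gene, MYCTH_2311474, a nucleolar protein that binds nuclear localization sequences, had 41.9 and 41.5 RPKM in JG207 against 105 and 98.6 in DF1102 and shares its description with lower genes. Translation factors had 4 lower (8.7%) and 0 higher of 46 by edgeR, with 22 lower and 3 higher without the fold minimum. The lower count was 2 without JG207 replicate 2 or DF1102 replicate 1. Aminoacyl-tRNA synthetases had 5 lower (13.9%) and 2 higher (5.56%) of 36, the lower share lying near that of all genes. MYCTH_59106, aspartyl-tRNA synthetase, had 6.79 and 5.5 RPKM in JG207 compared with 34.9 and 31.8 in DF1102, and MYCTH_2294054, lysyl-tRNA synthetase, 50.1 and 61.8 RPKM in JG207 versus 21.3 and 22.5 in DF1102. The other higher gene of that list, MYCTH_2298479, is a tRNA ligase of tRNA splicing and not a synthetase. It had 65.6 and 63.6 RPKM in JG207 against 256 and 271 in DF1102, and MYCTH_2304008, a 2'-phosphotransferase of the final step of the same splicing, had 63.4 and 59.5 RPKM in JG207 compared with 300.3 and 319.9 in DF1102. These genes of tRNA splicing thus both rose, while the tRNA modification list had 2 lower and 0 higher of 35, with 15 lower and 2 higher without the fold minimum.

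Several large lists held few calls next to the 10.2% and 11.1% of all genes. Vesicle transport had 4 higher and 4 lower of 205, proteasome and ubiquitin 7 and 7 of 179, and splicing 1 and 1 of 65. The 1 higher splicing gene, MYCTH_2064854, an essential splicing factor, had 15.1 and 12.2 RPKM in JG207 versus 84.6 and 89 in DF1102 and was the exception of its list. Without JG207 replicate 1, JG207 replicate 2 or DF1102 replicate 2 the list had 2 higher. Chaperones had 1 higher and 3 lower of 83, and 0 higher without JG207 replicate 1. Actin and septin genes had 4 and 3 of 93, and 1 lower without JG207 replicate 2. Protein kinases had 2 and 7 of 120, and 1 higher without DF1102 replicate 2. The vacuolar and plasma membrane ATPases had 0 higher and 1 lower of 22 by edgeR, where 1 was higher and 7 lower without the fold minimum, and the lower count was 0 without DF1102 replicate 1 and 2 without JG207 replicate 1 or DF1102 replicate 2. The smaller shifts had a direction in some of these lists. In proteasome and ubiquitin, 125 of 179 lay above 0, with a median of 0.19, and in splicing 45 of 65, with a median of 0.27. The chart of all lists gives these counts in order of the median.

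**Figure D3:**
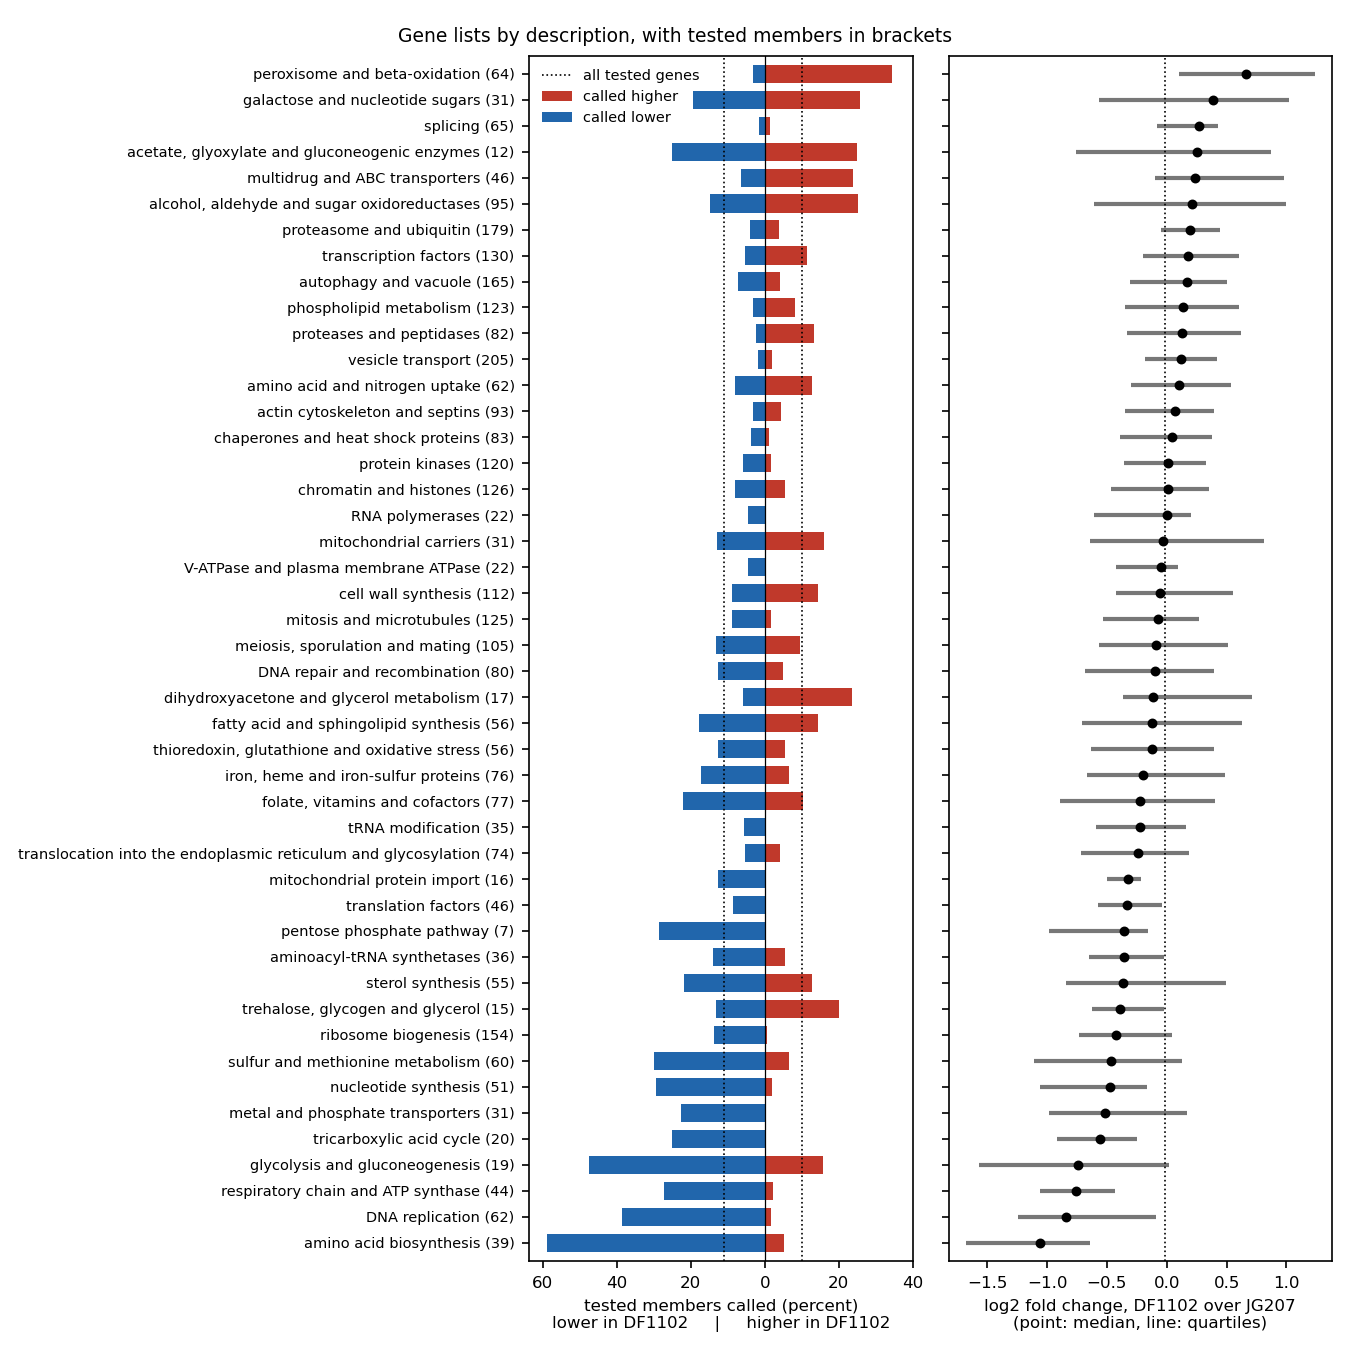
Left, percent of the tested members of each of 46 lists called higher (red, to the right) or lower (blue, to the left) in DF1102, with dotted lines at the shares of all tested genes, 10.2% and 11.1%. Right, median (point) and quartiles (line) of the log2 fold change, with a dotted line at the median of all genes. Amino acid biosynthesis (59.0% lower) and peroxisome and beta-oxidation (34.4% higher) lie at the ends.

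Of 130 genes described as transcription factors, 15 were higher (11.5%) and 7 lower (5.38%), next to 10.2% and 11.1% of all genes, with a median of 0.18. MYCTH_2305522, a zinc cluster protein, had 9.7 and 10.9 RPKM in JG207 against 59.8 and 58.3 in DF1102. MYCTH_2298863, a zinc finger factor that in yeast regulates genes in response to heme and oxygen, had 16.3 and 21.4 RPKM in JG207 compared with 84.4 and 87.1 in DF1102. MYCTH_92449, a zinc finger factor of the glucose induction of the G1 cyclin gene CLN3 in yeast, fell from 9.18 and 11 to 2.26 and 1.89 RPKM (-2.29 ± 0.22). MYCTH_2132417, a general repressor that acts with Cyc8p in yeast, was in the chromatin list and had 43.4 and 46.8 RPKM in JG207 versus 184 and 182 in DF1102 (2.02 ± 0.13). That list had 7 higher (5.56%) and 10 lower (7.94%) of 126, both shares under those of all genes. Its lower count changed without DF1102 replicate 1. Meiosis, sporulation and mating genes had 10 higher (9.52%) and 14 lower (13.3%) of 105, near the shares of all genes. MYCTH_72393, described as a sporulation glucoamylase, had 4.92 and 5.16 RPKM in JG207 against 28.2 and 25.6 in DF1102, and MYCTH_2299876, a kinase of the pheromone response, 48.7 and 69.3 RPKM in JG207 compared with 18 and 21.1 in DF1102. Cell wall genes had 16 higher (14.3%) and 10 lower (8.93%) of 112. Among the lower ones was MYCTH_97899, a mannosyltransferase of wall mannan, at 32.9 and 34.8 RPKM in JG207 versus 8.25 and 8.47 in DF1102.

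Some genes that share a description moved in opposite directions. Among tested genes, 477 descriptions belonged to 2 or more genes, 1370 genes in all, and in 69 of them 2 or more genes were called. In 24 of the 69 all called genes were higher, in 16 all were lower and in 29 there were both. Of all called genes, 47.9% were higher. Called genes in both directions within a description are thus not unusual by themselves, and an excess was not tested. With at least 10 CPM in the strain with the higher level, 22 descriptions held a called gene in each direction, and this set was chosen after the values were seen. Whether reads were lost or split between similar copies was not examined here, and the authors counted reads that map to a single gene.

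Central steps of carbon metabolism were among these pairs. Triose phosphate isomerase, which interconverts the triose phosphates of glycolysis, had a gene that fell, MYCTH_2304931, with 380 and 383 RPKM in JG207 against 76.8 and 86.9 in DF1102, and one that rose, MYCTH_39694, with 12.1 and 9.15 RPKM in JG207 compared with 119.5 and 132 in DF1102. The rising gene started far below and ended above the falling one. Aldolase, which splits fructose-1,6-bisphosphate into triose phosphates, had MYCTH_2300033 with 413 and 422 RPKM in JG207 versus 118 and 111 in DF1102 and MYCTH_2298452 with 236 and 179.8 RPKM in JG207 against 481 and 466 in DF1102. The rising aldolase (1.17 ± 0.20) was not called without JG207 replicate 2, at 0.94. The falling isomerase and aldolase fell by 2.23 and 1.87 on the log2 scale, in the range of the other glycolytic genes. 3-Phosphoglycerate dehydrogenase, which opens serine synthesis, had MYCTH_2314616 with 226 and 302 RPKM in JG207 compared with 62 and 70.6 in DF1102 and the much less abundant MYCTH_2305529 with 9.73 and 9.27 RPKM in JG207 versus 19.4 and 22.9 in DF1102.

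Mitochondrial and sterol genes gave further pairs. Subunit c of the ATP synthase, which forms its membrane ring, had MYCTH_112204 with 1854 and 2236 RPKM in JG207 against 207 and 240 in DF1102 and MYCTH_82981 with 368 and 282 RPKM in JG207 compared with 1061 and 1172 in DF1102. The log2 fold changes were -3.19 ± 0.18 and 1.77 ± 0.18, and the order of the 2 genes was reversed between the strains, as in 11 of the 22 pairs. Mitochondrial elongation factor Tu had MYCTH_66068 with 246 and 277 RPKM in JG207 versus 87 and 88.8 in DF1102 and MYCTH_2303368 with 20.8 and 25.9 RPKM in JG207 against 92.3 and 87.8 in DF1102, which came to nearly the same level in DF1102. Lanosterol 14-alpha-demethylase had a second gene, MYCTH_95473, with 3.67 and 4.44 RPKM in JG207 compared with 14.6 and 12.9 in DF1102, which rose (1.76 ± 0.31) but stayed below MYCTH_110187. The C-22 sterol desaturase of a late ergosterol step had MYCTH_73679 with 199.7 and 210.2 RPKM in JG207 versus 100.1 and 96.7 in DF1102 and MYCTH_102965 with 36.5 and 31.2 RPKM in JG207 against 182 and 125 in DF1102. Alpha-aminoadipate reductase of lysine synthesis had MYCTH_2295392 with 29.3 and 30.7 RPKM in JG207 compared with 14.3 and 14.3 in DF1102 and MYCTH_2309658 with 2.22 and 2.36 RPKM in JG207 versus 23.1 and 28.2 in DF1102. In the quinone oxidoreductase family, MYCTH_2299636 fell from 246 and 214 to 63.3 and 79.5 RPKM as MYCTH_2094591 rose.

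**Figure D4:**
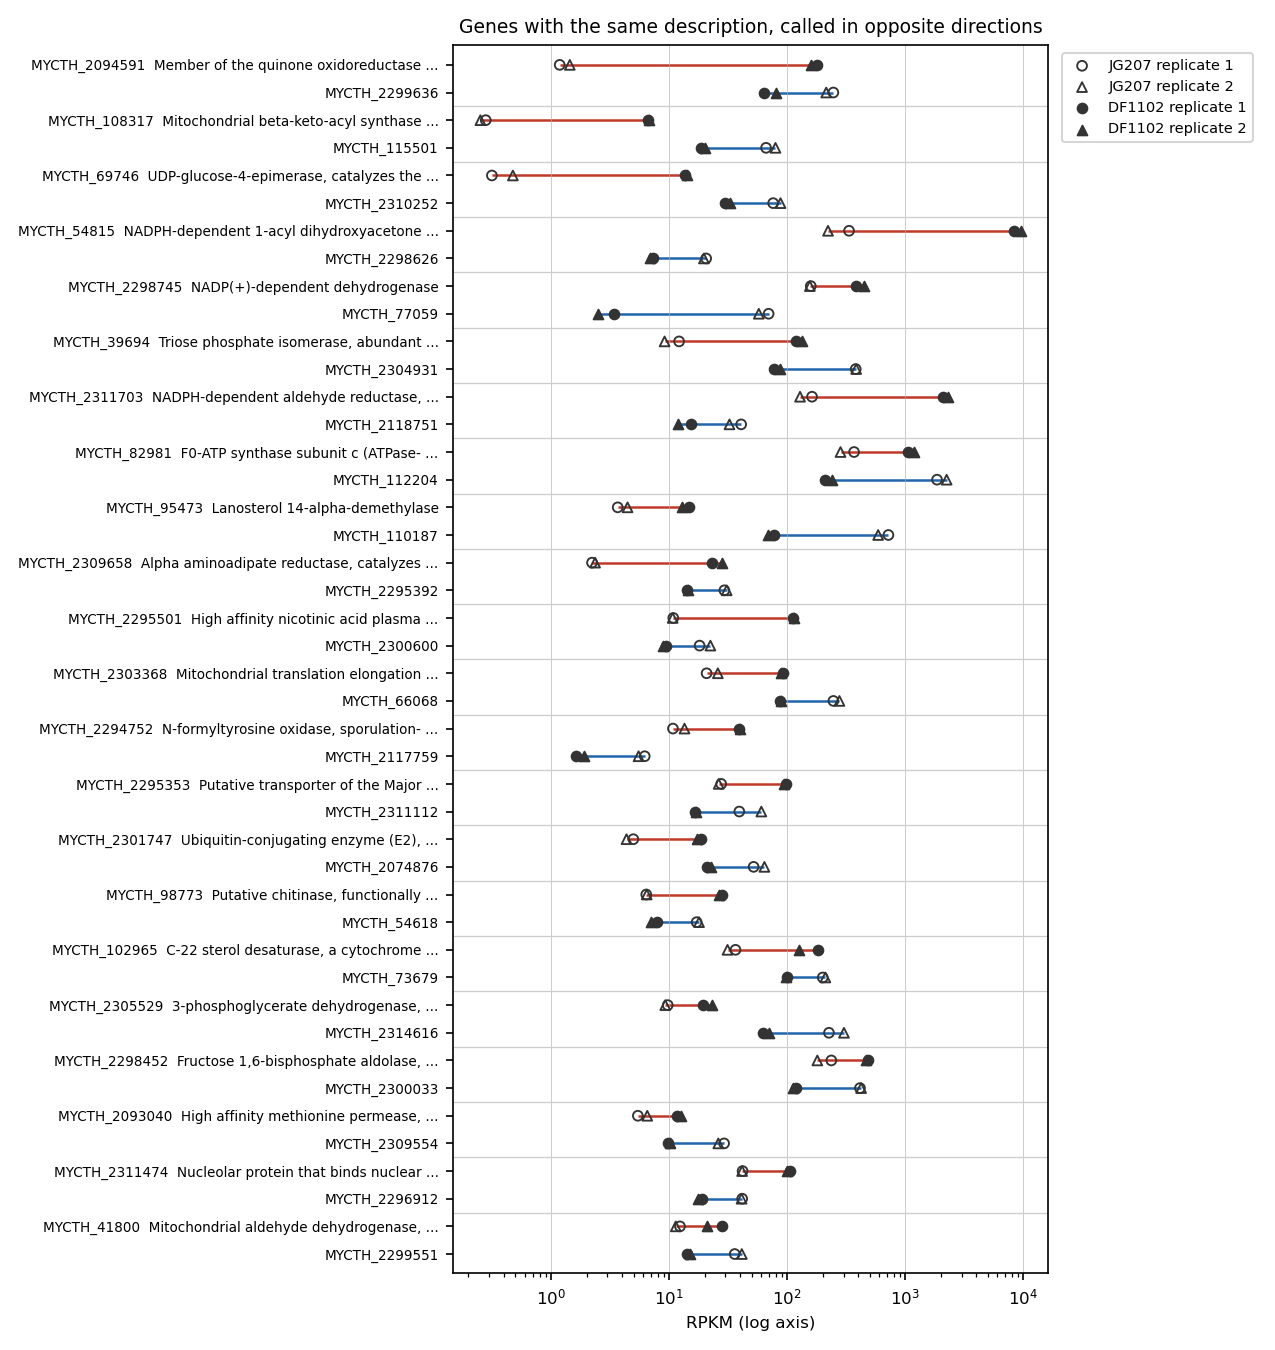
RPKM (log axis) in each library for 22 descriptions with a gene called in each direction, the higher gene (red) above the lower gene (blue), ordered by the distance between their log2 fold changes. Open symbols are JG207 and filled symbols DF1102. In 11 of the 22 pairs, triose phosphate isomerase, aldolase and ATP synthase subunit c among them, the lower gene is the more abundant in both libraries of JG207 and the higher gene in both of DF1102.

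Called genes also lay side by side on the genome. In the RefSeq gene order, taken for 8319 of the 8335 tested genes, runs of at least 3 neighbouring genes called in the same direction numbered 16, 12, 2 and 1 with 3, 4, 5 and 7 higher genes, and 15, 4 and 1 with 3, 4 and 5 lower genes. They held 113 (13.3%) of the genes called higher and 66 (7.15%) of those called lower. The members of the 7-gene run were all low in JG207. MYCTH_2118765 had 0.672 and 0.202 RPKM in JG207 against 23.5 and 22 in DF1102, MYCTH_2305635 had 0.78 and 0.422 RPKM in JG207 compared with 17.9 and 19.3 in DF1102 and MYCTH_2305637 had 0.263 and 0.384 RPKM in JG207 versus 16.2 and 13.2 in DF1102. MYCTH_2305640 reached the highest level, at 2.02 and 1.99 RPKM in JG207 against 57.1 and 52.1 in DF1102. MYCTH_2127410, the only member with a description, a 2,4-dienoyl-CoA reductase, had 2 counts in the 2 libraries of JG207 together and 253 in those of DF1102, a ratio of 127 with an exact 95% interval of 34.8 to 1050 for counting error alone. MYCTH_2118764, at the start, had 0.443 and 0.36 RPKM in JG207 compared with 5.13 and 5.15 in DF1102. At the other end, MYCTH_2060683 had 9 counts over the libraries of JG207 and 30 over those of DF1102, a ratio of 3.35 (1.55 to 8.02), and was not called without JG207 replicate 1, JG207 replicate 2 or DF1102 replicate 2, with adjusted p of 0.0804, 0.0753 and 0.154. With only the 4 libraries compared, MYCTH_2060683 did not pass the filter on low counts, so the run would then end at MYCTH_2305640. The genes past MYCTH_2060683, MYCTH_2305642 and MYCTH_66783, had log2 fold changes of -0.10 and 0.09. Past the start, MYCTH_50396 was not analysed here, MYCTH_2305633 was at 0.75 and was not called, and MYCTH_2127404 was called higher, at 2.68 ± 0.55. In the 5-gene run of lower genes, MYCTH_2308229 and MYCTH_2308231, without description, fell by 2.13 and 1.84. The others were MYCTH_83980, a protein of the small ribosomal subunit, MYCTH_2308236, a fusion of a ribosomal protein with ubiquitin, and MYCTH_2308241, described as a putative chitinase, at -1.06, -1.17 and -1.14. MYCTH_83980 was not called without JG207 replicate 1 or DF1102 replicate 1, at -0.96 and -0.996.

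**Figure D5:**
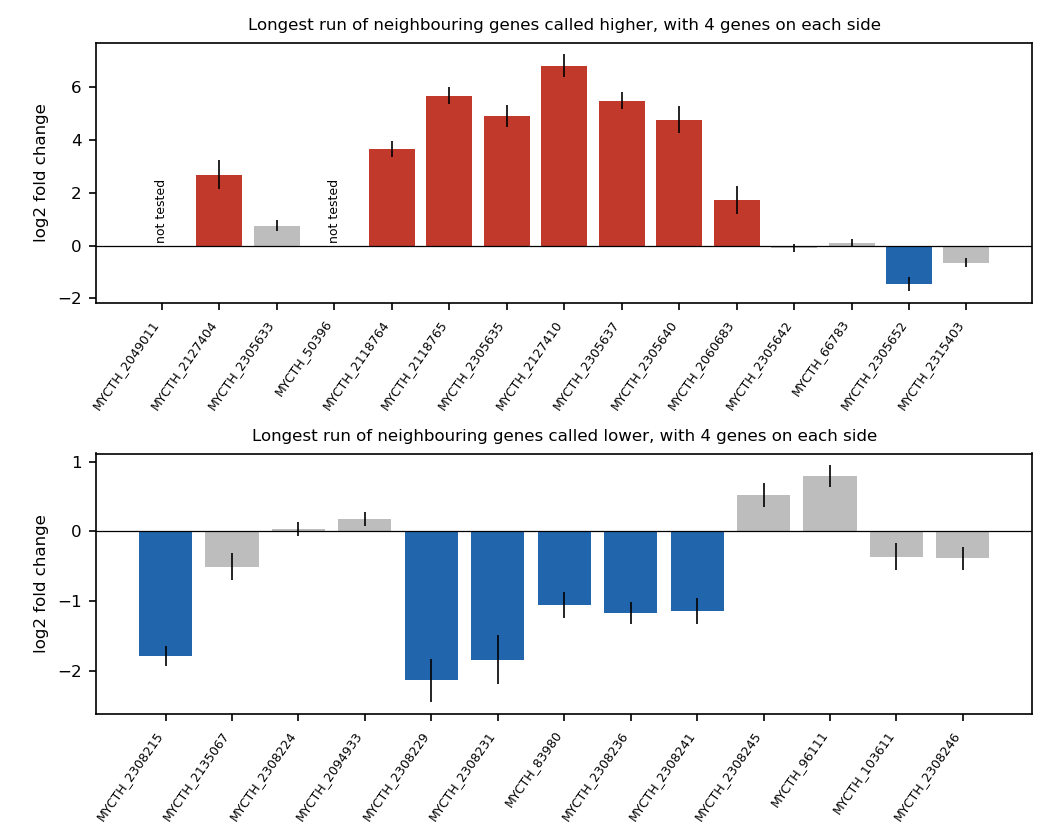
Log2 fold change of DF1102 over JG207 for the genes of the longest run called higher (top, 7 genes) and the longest run called lower (bottom, 5 genes), with 4 genes on each side in RefSeq order. Bars start at 0, error bars are 1 standard error, and red, blue and grey mark genes called higher, called lower and not called. The 2 genes after the top run lie near 0. The last gene of the top run, MYCTH_2060683, was not tested with only the 4 libraries compared.

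Of the 10 described genes with the highest folds, 8 stood in such runs, and of the 10 with the lowest, 3. Of the 5 highest and 5 lowest without a description, 2 and 1 did. Among all called genes, 13.3% of the higher and 7.15% of the lower stood in runs. The runs were looked at after the values were seen. The kinase gene MYCTH_40719 lay in a run of 5 higher genes between MYCTH_89872, without description, with 21.3 and 13.3 RPKM in JG207 versus 644 and 608 in DF1102, and the rising aldolase gene MYCTH_2298452. The rising triose phosphate isomerase gene MYCTH_39694 opened this run, and MYCTH_2086155, a histone methyltransferase gene, closed it, at 1.63 ± 0.20. Genes for dihydroxyacetone kinase, triose phosphate isomerase and aldolase, which act on 3-carbon sugars and their phosphates, thus stood side by side and all rose. The beta-oxidation gene MYCTH_2309487 and the reductase gene MYCTH_54815 were neighbours, in a run of 4 with MYCTH_2112425 (5.30) and MYCTH_2309491 (4.43). The epimerase gene MYCTH_69746 and the beta-keto-acyl synthase gene MYCTH_108317 were neighbours in another run of 4, between MYCTH_11658 (4.84) and MYCTH_82772 (4.01). The aryl alcohol dehydrogenase gene MYCTH_116237 followed MYCTH_2128242 (4.42) and MYCTH_94772 (5.01), and MYCTH_2301625 stood between MYCTH_2301624 (3.17) and MYCTH_100589 (4.55).

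Genes without a description had 542 higher (12.8%) and 443 lower (10.5%) of 4218. The largest log2 fold change among them, 11.21, belonged to a gene of the CAZyme or transporter list. Outside these lists, the 5 highest with at least 10 CPM in DF1102 were MYCTH_2308874, MYCTH_2129843, MYCTH_2066457, MYCTH_2308875 and MYCTH_2299856. Their log2 fold changes ran from 6.06 to 6.93. MYCTH_2066457 had 30.6 and 22.7 RPKM in JG207 against 2352 and 2394 in DF1102, and MYCTH_2129843 had 4.79 and 1.71 RPKM in JG207 compared with 328 and 340.1 in DF1102. MYCTH_2308874 and MYCTH_2308875 stood together in a run of 4 higher genes whose first member, MYCTH_2308872, is described as a peroxisomal lipase inducible by oleic acid, at 1.23. The 5 lowest outside these lists, with at least 10 CPM in JG207, were MYCTH_2307967, MYCTH_2311075, MYCTH_2305952, MYCTH_2311687 and MYCTH_108407, from -4.62 to -3.83. MYCTH_2307967 had 347 and 268 RPKM in JG207 versus 13.3 and 11.9 in DF1102, and MYCTH_108407 had 268 and 458 RPKM in JG207 against 23.1 and 27.6 in DF1102. Most of the genes called higher thus lie outside what the descriptions cover.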

How the data were processed

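The authors filtered reads with SOAPnuke, mapped them to the M. thermophila genome with TopHat2 2.0.12 and took as counts, by HTSeq 0.13.5, the reads of a single gene. The strand setting is not given in the sources used here. Counts were used as deposited. In the column of JG207 replicate 1 the deposited counts end in 3 rows that name no gene, which were left out, and 0 columns were unused. The deposited RPKM values, which the authors computed from their counts and a gene length, gave the levels printed and the input of limma.

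Counts of all 8 libraries were fitted in edgeR 4.0.16 (R 4.3.3) with TMM factors of 0.954 to 1.05, a mean for each strain and the default filter on low counts (minimum count 10). The quasi-likelihood test had 4 residual degrees of freedom and 5.16 prior ones. Benjamini-Hochberg adjustment ran over all 8335 tested genes. A standard error is the size of the log2 fold change over the root of F. The code was tested on simulated data. Totals differed little between libraries, and exact intervals of count ratios cover counting error only.

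Lists were drawn by words in the 4214 descriptions used, and 23 descriptions were not used. Words were corrected after the descriptions were read and before fold changes were used. The genes compared and the lists were chosen with earlier results of these data known. Genes named are the d-xylose genes, the 10 highest and 10 lowest folds with and the 5 highest and 5 lowest without a description, up to 3 called genes of each list in each direction, the 10 genes that gained and the 10 that lost the most CPM, the members of the longest runs and the central carbon genes. These needed at least 10 CPM in the higher strain, apart from the d-xylose genes, the runs and the central carbon genes. The highest and lowest folds were taken outside the CAZyme, transporter and ribosomal lists. Other genes, including the pairs of shared descriptions and the neighbours of Mtxyl1, were chosen after their values were seen. Gene order and overlaps came from the RefSeq annotation ASM22609v1, used for no coordinates.

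Alternatives were DESeq2 1.42.0, RLE factors, library size alone, no filter, at least 10 counts in every library, only the 4 libraries compared, a replicate block, limma 3.58.1 on log2(RPKM + 1) with a filter of a mean RPKM of at least 1 and without it, and on log2(RPKM + 0.1), omission of each library of JG207 and DF1102 in turn, and calls at any fold.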

Additional observations from a re-analysis of the deposited data

How the results depend on the processing

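The counts of 849 higher and 923 lower genes stayed within 1.5 times under 14 of the 15 alternatives. Without the fold minimum they were 2316 and 2458. Leaving out 1 library of the 4 gave 816 to 873 higher and 860 to 935 lower genes. DESeq2 gave 841 and 883, and limma on log2(RPKM + 1) gave 646 and 749. Whether equal replicate numbers mark samples handled together is not given in the sources used here. The deviations from the strain means correlated at 0.169 between JG207 and DF1102 and at -0.223 to 0.13 between the other pairs of strains. With 2 libraries a strain and genes that are not independent, these values cannot decide it. A replicate block gave 840 higher and 918 lower genes, of which 837 and 915 were also called without the block. Of 311 named genes, 271 kept their call in every alternative that tested them with the fold minimum in place, and 0 changed direction. For the 46 lists, 1235 of 1288 counts under these alternatives lay within 1.5 times, 42 were lower and 11 higher. With 2 libraries a strain the spread rests on 4 residual degrees of freedom over all 8 libraries, so calls near a fold of 2 are the least certain. Strand, read position within genes and reads shared by similar copies could not be examined in counts.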

Other observations

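The descriptions of 12 tested genes name the yeast factors Yrm1p or Yrr1p, zinc finger regulators of multidrug resistance genes in yeast. Of these, 7 were higher in DF1102 by edgeR, and all 12 lay above 0, with a median log2 fold change of 1.47. Of all 8335 tested genes, 10.2% were higher and 4115 lay above 0, with a median of -0.01. They were brought together after their values were seen, so no test was made. The 12 include all 4 putative aryl alcohol dehydrogenase genes, of which MYCTH_116237, MYCTH_2302975 and MYCTH_2302859 were called higher. The remaining one, MYCTH_2307982, had 1009 and 841 RPKM in JG207 compared with 1581 and 1849 in DF1102 and lay under the fold minimum, at 0.88 ± 0.24 on the log2 scale. MYCTH_2295902, MYCTH_2060442 and MYCTH_102172, which share the description of a protein of alcoholic fermentation, were at 6.53 ± 0.64, 6.58 ± 0.69 and 2.04 ± 0.23 on the log2 scale. Another gene with this description, MYCTH_2303125, had 3.35 and 2.32 RPKM in JG207 versus 3.4 and 4.24 in DF1102 and was not called (0.42 ± 0.27). MYCTH_53224, described as such a factor and a paralog of Yrm1p, stood at 13.2 and 13.6 RPKM in JG207 against 22.4 and 20.3 in DF1102, with a log2 fold change of 0.67 ± 0.10. MYCTH_2309752, similar to ABC transporters, was at 0.51 ± 0.12.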
